A study of Populus deltoides with 12 samples.

Results

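The 128 genes described here were detected in leaves of the green-leaf poplar L2025 and were absent or nearly absent from leaves of the colored-leaf cultivars QHP and ZSY. They were chosen by their measured values. A gene of the deposited annotation was taken as a member when its FPKM (fragments scaled to exon length and to library size) was at least 0.5 in each of the 3 L2025 libraries and at most 0.05 in each of the other 9. The rule picked 128 of 44853 annotated genes, and 26069 genes reached 0.5 FPKM in each L2025 library. Since the rule used these values, the difference between L2025 and the other leaves is a description and carries no test.

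RNA-seq was performed on leaves of *Populus deltoides* in 4 groups of 3 biological replicates. G stands for the green leaves of L2025, P for the purple leaves of 'Quanhong' (QHP), and F_G and F_P for the green and the purple leaves of 'Zhongshanyuan' (ZSY). All plants were labeled WT with no treatment and were seedlings of the same age from 1 field. Mature leaves were sampled at the fourth and the fifth fully expanded positions for P and G and as fully expanded leaves for F_G and F_P. QHP and ZSY belong to a series of colored-leaf cultivars raised from L2025. L2025 was the only cultivar with green leaves alone, and no second green-leaf cultivar was measured, so the cultivar and anything else that set the L2025 plants apart cannot be told apart. Between 14543579 and 16628923 fragments per library fell on annotated genes (14940024 to 15982748 in G), and the 23 genes of light-harvesting antenna proteins, a marker of green leaf tissue, exceeded 1 FPKM in all 12 libraries. Their median ranged from 136 to 602 FPKM per library and was highest in the G libraries, and its bearing on the members was not tested.

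Leaf color in poplar depends on the balance of chlorophylls, which are bound to antenna proteins in the chloroplast, and of anthocyanins, red to purple flavonoids made in the cytosol from phenylalanine and stored in the vacuole. The first committed enzyme of the flavonoid pathway is chalcone synthase, and MYB and bHLH transcription factors control its later steps. RNA-seq records the transcripts that can be placed on a reference genome. An FPKM of 0 therefore means that no fragment was assigned to a gene model. DNA was not measured, so loss of a gene, change of its sequence and loss of its transcription cannot be told apart.

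Outside L2025 the members were close to empty. No fragment was assigned to 117 of the 128 members in any of the other 9 libraries, and 1139 of the 1152 values were 0. The other 9 libraries held 14 fragments on members in total, between 0 and 3 per library and at most 2 in 1 value. The 3 G libraries held 8707, 7879 and 9342. The traces were spread over P, F_G and F_P, and no library carried them alone. The heat map of all members shows this contrast.

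**Figure D1:**
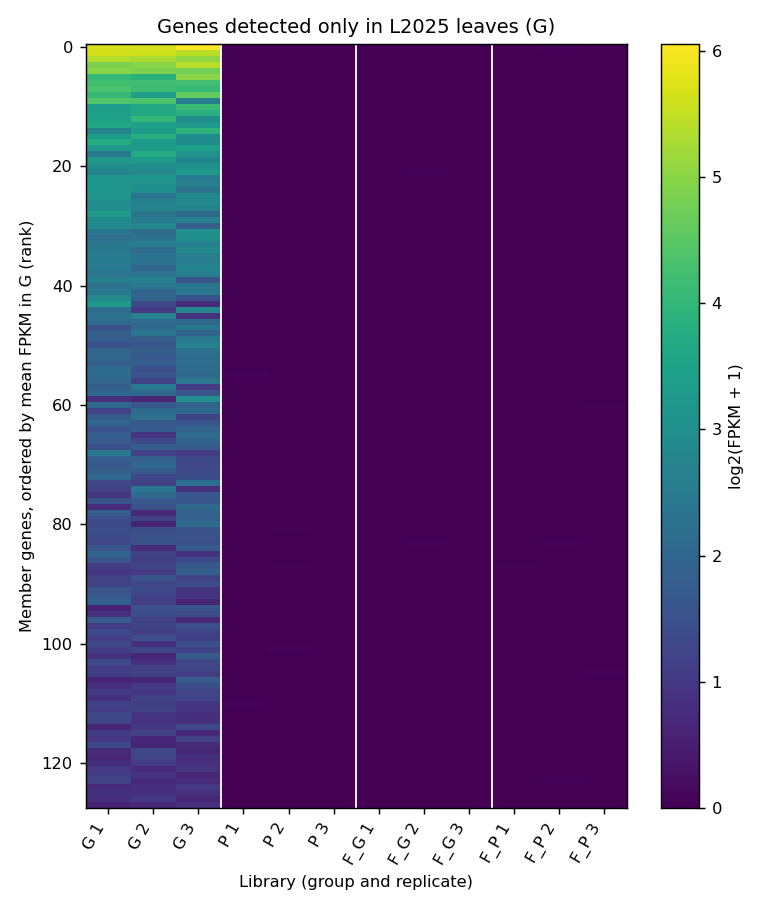
Expression of the 128 members in the 12 libraries. Color gives log2(FPKM + 1), the columns are the libraries by group and replicate, and the rows are the members ordered by mean FPKM in G. The G columns reach from the 0.5 FPKM of the rule to 65.6 FPKM, and all other columns are at or near 0.

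The pattern was unequal between cultivars. By the same rule, 2 genes were detected only in QHP, 1 only in F_G, 3 only in F_P and 0 in both ZSY groups alone. The opposite pattern, at most 0.05 FPKM in each G library and at least 0.5 FPKM in each of the other 9, held for 71 genes. Between leaf colors, 15 genes were detected in both green groups only and 2 in both purple groups only. In F_P alone, 33 genes were low. With a ceiling of 0 and of 0.1 FPKM in place of 0.05, the genes of both green groups only became 11 and 37, those low only in F_P became 17 and 66, and those low only in L2025 became 66 and 91. The demand was then changed to at least 10 fragments in each library of the group and 0 elsewhere. It gave 86 genes for L2025, of which 78 were members, and 46 missing from L2025 only. By this demand 0 genes were found only in QHP, only in F_G, only in F_P or in both purple groups only. Both green groups only held 9 genes, and 21 were missing from F_P only. These counts compare groups of different numbers of libraries, since P and L2025 each consist of 3 libraries and ZSY of 6.

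**Figure D2:**
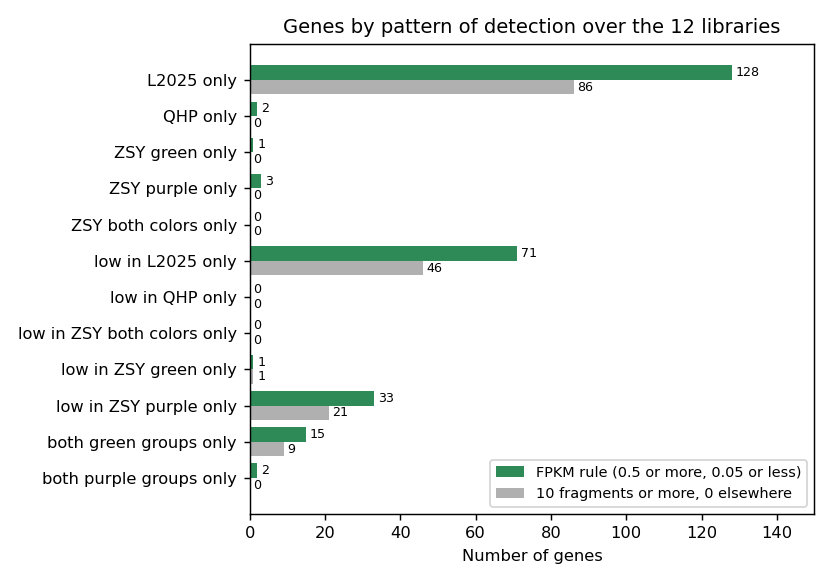
Number of genes with each pattern of detection over the 12 libraries. Green bars use the FPKM thresholds and gray bars require 10 fragments or more in each library of the group and 0 elsewhere. The L2025 patterns (128 genes present only there and 71 low only there) hold the longest bars.

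Most members were weakly expressed in L2025. Their mean FPKM over the G libraries had a median of 2.38 (quartiles 1.41 and 4.87, range 0.632 to 55.3), below the median of 9.08 for all genes detected in each G library. Only 13 members reached 10 FPKM, 31 reached 5 FPKM and 51 stayed under 2 FPKM. In 39 members at least 1 G library held fewer than 10 fragments. The 12 strongest members held 47.2% of the 25928 member fragments. For the 117 members at 0 elsewhere, the level in G was compared with the level that 3 fragments would give in a single other library. The bound was at least 8.76-fold for the median member, 54 members reached at least 10-fold, and 7 members were below 2. For these 7 the bound hardly separates L2025 from a single other library, and the other 9 libraries were not pooled.

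The strongest member was Podel.17G006300 (chromosome 17, 546409 to 548922, minus strand, 4 exons). It had 49.8, 50.7 and 65.6 FPKM in G1, G2 and G3, a mean of 55.3 ± 8.89 (SD, n = 3), and a single fragment in the other 9 libraries. All 3 G libraries were high and F_P replicate 2, with 0.040 FPKM, carried the lone fragment. Podel.13G195100 (chromosome 13, 17001500 to 17002836, plus strand, 4 exons) followed with 50.2, 48.5 and 42.2 FPKM in G (47.0 ± 4.17) and 0 elsewhere, at least 159-fold higher by the bound of 3 fragments per library. No function is given for either gene in the sources used here.

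Podel.15G121800 (chromosome 15, 13350519 to 13368444, plus strand, 8 exons) was the steadiest member. It had 17.6, 17.3 and 17.9 FPKM in G, a coefficient of variation of 1.70%, and 0 in the other libraries, at least 249-fold higher, the highest bound of any member. Podel.01G466300 (chromosome 1, 9 exons) had 19.3, 17.1 and 15.6 FPKM. Both genes are spliced models of many exons, with transcripts of 2621 bp for Podel.15G121800 and 819 bp for Podel.01G466300. Podel.07G151100 (chromosome 7, 2 exons) had 30.4, 28.2 and 26.1 FPKM, and Podel.03G051000 (chromosome 3, 5 exons) had 9.86, 11.9 and 12.9 FPKM, both with 0 elsewhere.

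Replicates of other members spread further. Podel.T017400, a gene of 1 exon on an unplaced scaffold, had 20.2 and 19.2 FPKM in G1 and G2 and 4.89 in G3. Podel.T285200 had 0.781, 0.556 and 6.88 FPKM in G, the highest coefficient of variation of all members (131%), and rested on 3, 2 and 26 fragments. G3 was therefore the low library for one gene and the high library for the other. Over all members the coefficient of variation had a median of 32.0%, against 12.6% for all genes detected in each G library, and the correlation of log2 values between G libraries was 0.906 for G1 and G2, 0.830 for G1 and G3 and 0.832 for G2 and G3. These are descriptions across genes, which share libraries. Members have fewer fragments than other detected genes, and the part of counting error in this spread was not tested. The level in G3 divided by the mean of G1 and G2 had a median of 1.06, and it was under 0.5 in 14 members and over 2 in 11.

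Runs of neighboring members were found on chromosomes and on scaffolds. In the gene order of the annotation, 20 members (15.6%) formed 9 runs with no other gene between them, and the longest held 3. For comparison, 6 of the 71 genes low only in L2025 (8.45%) lay in 3 runs. The share in runs tends to rise with the number of genes in a set, and these sets differ in size. With 1 intervening gene allowed, 28 members formed 12 runs and the longest held 4. With a minimum of 1 FPKM in each G library, 9 of 84 genes (10.7%) lay in 4 runs, nearer to the share of the genes low only in L2025.

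The first run of 3 lay on scaffold_321 within 3220 bp. Podel.T130800 (1 exon) had 9.13, 11.5 and 16.0 FPKM in G. Podel.T130900 (2 exons) had 40.7, 38.1 and 32.4 FPKM. Podel.T131000, a gene of 1 exon that lies within the span of Podel.T130900 on the opposite strand, had 2.93, 2.43 and 3.64 FPKM. All 3 were at 0 in the other 9 libraries. The next gene, Podel.T131100, was no member but had 49.8, 49.4 and 60.2 FPKM in G and between 0.541 and 1.92 FPKM elsewhere. Of the other 6 genes on this scaffold, none reached 0.5 FPKM in each G library.

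The second run of 3 lay on scaffold_90, which holds 8 annotated genes, of which 4 were members. Podel.T285000 (2 exons) had 2.70, 1.15 and 0.549 FPKM in G, from only 5, 2 and 1 fragments. Podel.T285100 (6 exons) had 9.10, 3.99 and 3.30 FPKM, and Podel.T285200 lies within its span on the opposite strand. The fourth member, Podel.T284800 (3 exons), had 15.6, 9.27 and 23.8 FPKM. It is separated from the run by Podel.T284900, with 40.0, 32.0 and 19.2 FPKM in G. That gene was no member because 1 fragment in F_P replicate 1 gave 0.307 FPKM and 2 fragments in F_P replicate 2 gave 0.611. The 3 remaining genes of the scaffold had fragments in all other groups. Podel.T285300, for example, had 31.6, 28.9 and 6.37 FPKM in G and 2.87 to 12.4 FPKM elsewhere, so that G3 fell within the range of the other groups.

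The third run was a pair on chromosome 4 (592676 to 594836). Podel.04G008900 (3 exons, plus strand) had 4.37, 3.36 and 6.32 FPKM in G, and Podel.04G009000 (1 exon, minus strand) lies within its span and had 10.1, 15.3 and 6.56 FPKM. In 10 of the 128 members the span of the gene model overlapped that of another member, so that these pairs were not independent observations. In 13 members the span overlapped that of any other gene, and how far reads of 1 gene fell on the other was not tested. Exons themselves overlapped for 1 member, Podel.05G033100, with a gene on the opposite strand, and strand is not stated for the libraries, so its reads cannot be assigned with certainty.

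A GO term or a KEGG pathway was at hand for 13 members, and 115 had neither. The functional annotation comes from the authors and covers DEGs only, in a copy that is cut, so the absence of a term says nothing about a gene. Podel.03G044900, annotated with FAD binding and with cutin, suberine and wax biosynthesis, the pathway of the lipid polymers and waxes at the plant surface, had 6.96, 6.83 and 7.23 FPKM in G and 0 elsewhere. Its replicates were among the closest of all members (chromosome 3, 5045089 to 5049610, 6 exons). Both members with the term ADP binding were spliced genes. Podel.01G069800 had 5.80, 6.27 and 8.72 FPKM in G with 2 fragments elsewhere, and Podel.18G075500 had 1.95, 2.20 and 2.07 FPKM with none.

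Podel.03G190100 (chromosome 3, 19106931 to 19115307, 3 exons) was the only member annotated with flavonoid biosynthesis. It had 2.55, 4.08 and 2.81 FPKM in G and 0 elsewhere. It also carried the KEGG map of the plant circadian rhythm, a pair of maps shared by 7 annotated genes, and the other 6 are the chalcone synthase genes PdeCHS1 to PdeCHS6. Podel.03G190300, on the circadian map alone, lies within the span of Podel.03G190100 on the same strand and had 6.81, 5.72 and 5.69 FPKM. None of the 37 named structural genes of the flavonoid and anthocyanin pathway was a member (0 of 37), and 31 of them reached 0.5 FPKM in each G library. None of the 22 listed MYB and bHLH genes was a member (0 of 22), and all 22 were detected in each G library. Members were 128 of the 26069 genes detected in each G library, so 0 in lists this short is near that share. The 22 genes came from the paper's networks of genes correlated with anthocyanins, a choice not independent of leaf color. PdeCHS5 (Podel.03G190000), next to Podel.03G190100, was no member but had 3.19, 3.26 and 3.15 FPKM in G and 0 to 0.637 elsewhere.

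The other annotated members had means in G from 1.01 to 2.22 FPKM. Podel.10G259100 on the N-glycan map, which covers the building of sugar trees on proteins, had 2.52, 2.62 and 1.51 FPKM in G. Podel.05G211600 (copper ion binding) had 1.73, 1.74 and 1.95 FPKM, and Podel.11G043000 (glycosphingolipid biosynthesis) had 1.63, 1.82 and 1.86 FPKM. Replicates of these last 2 genes were close together. Podel.T071400 (base excision repair, which replaces damaged DNA bases) had 1.49, 1.92 and 1.78 FPKM, and Podel.02G112100 (SNARE proteins, which fuse vesicles with membranes) had 1.95, 1.64 and 0.849 FPKM. Podel.01G267200 (RNA transport, spliceosome and mRNA surveillance) averaged 1.30 ± 0.136 FPKM (SD, n = 3), Podel.13G132200 (stilbenoid, diarylheptanoid and gingerol biosynthesis) 1.12 ± 0.204 and Podel.15G054100 (basal transcription factors) 1.01 ± 0.350. All of them had at most 2 fragments over the other 9 libraries together.

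The members' gene models were short, and many had few exons. A single exon was annotated for 33 members (25.8%), compared with 13.1% of the genes detected in each G library, 19.7% of all annotated genes and 21.1% of the 71 genes low only in L2025. Members had a median of 2 exons and a median transcript of 740.5 bp, whereas detected genes had 5 exons and 1609 bp. The genes low only in L2025 had 2 exons and 708 bp. In 60.9% of members the model held no UTR, against 14.9% of detected genes and 53.5% of the genes low only in L2025. In each of these features the genes low only in L2025 lay nearer to the members than to the detected genes. Level was not matched in this comparison, and its part in the difference was not tested.

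**Figure D3:**
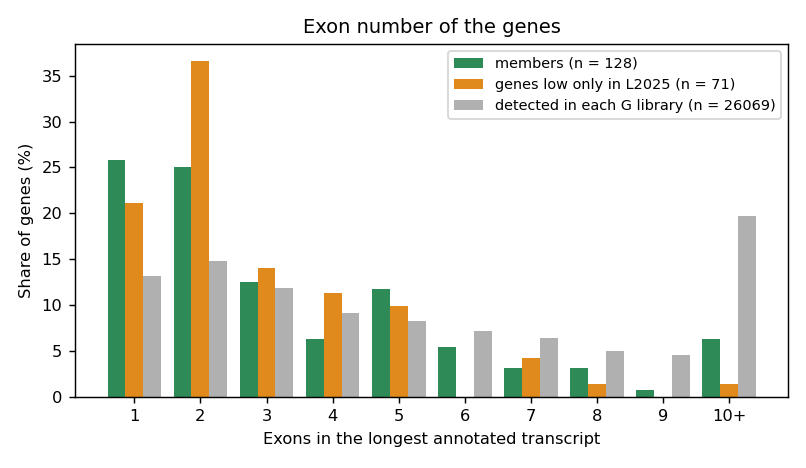
Share of genes by the number of exons in the longest annotated transcript. Green bars are the 128 members, orange bars the 71 genes low only in L2025, and gray bars the 26069 genes detected in each G library. Members exceed the detected genes at 1 exon (25.8% against 13.1%) and at 2 exons and fall below them at 10 or more.

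Members were present on all 19 chromosomes, from 3 genes on chromosome 8 (0.193% of its detected genes) to 12 on chromosome 3 (0.822%). Unplaced scaffolds held 24 members (18.8%) spread over 18 scaffolds, and these were 2.97% of the detected scaffold genes. Of all genes detected in each G library 3.10% lie on scaffolds, and of the genes low only in L2025 16.9%. Scaffold genes were thus more frequent in both sets.

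Some members resemble other genes in the layout of their coding exons. Sequences were not compared, so how similar such copies are is not known. Of the 63 members with at least 3 coding exons, 10 (15.9%) shared the exact series of coding exon lengths with another gene, near the 17.0% of detected genes. Where copies are near-identical, reads can be split between them, so these levels are uncertain. Podel.T207600 (scaffold_57) had 28.3, 30.6 and 42.3 FPKM in G and Podel.T116600 (scaffold_277) had 15.6, 14.0 and 31.0 FPKM, both 0 elsewhere. They share 5 coding exons with Podel.14G194900 and Podel.T281400, which are no members. Podel.14G194900 (chromosome 14, 16727235 to 16728975) had 6.64, 8.50 and 10.5 FPKM in G and 0 to 0.498 FPKM elsewhere, and its neighbor Podel.14G194800 was a member. Podel.T281400 had 1.57, 0.994 and 0.709 FPKM in G and 0 to 0.736 FPKM elsewhere, so that its lowest G library lay below its highest F_P library. The sum over the 4 genes, which depends less on how reads were split among them, was 63.6 ± 18.2 FPKM in G (SD, n = 3), 0.227 ± 0.231 in P, 0.431 ± 0.084 in F_G and 0.619 ± 0.396 in F_P.

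**Figure D4:**
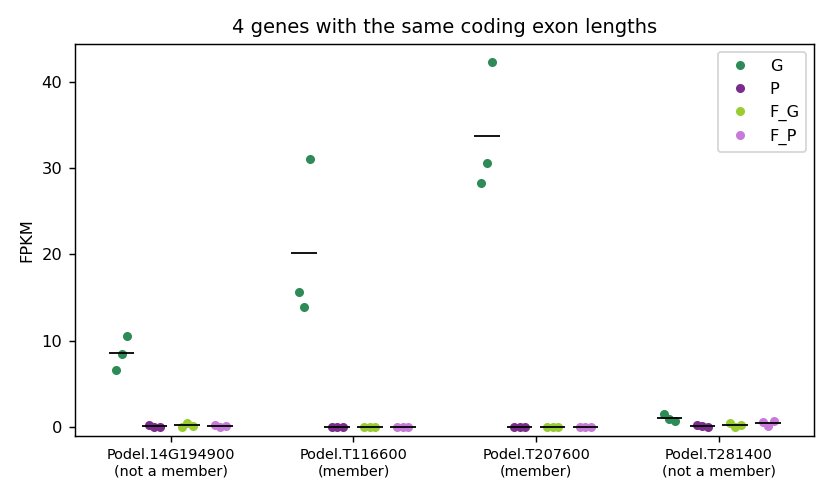
FPKM of 4 genes with the same series of coding exon lengths in the 12 libraries. Points are libraries, colored by group, and black bars are group means (n = 3). Podel.T207600 and Podel.T116600 are at 0 outside G, Podel.14G194900 stays at or below 0.498 FPKM there, and only Podel.T281400 overlaps between groups.

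Copies of other members took several patterns. The copy of the strongest member, Podel.17G008700, had fragments in every group, with 1.37 ± 0.289 FPKM in G (SD, n = 3), 0.366 ± 0.144 in P, 0.417 ± 0.158 in F_G and 0.383 ± 0.059 in F_P. Its means outside G were below the 0.5 FPKM used for detection. The copy of Podel.13G186300, Podel.17G138900, had its highest mean in F_G, with 9.02 ± 2.91 FPKM, against 3.18 ± 1.29 in G, 2.83 ± 0.426 in P and 3.45 ± 0.959 in F_P. The copy of Podel.T285100, Podel.T183600 on scaffold_49, had 17.5, 8.56 and 18.5 FPKM in G and at most 0.201 FPKM elsewhere. The copy of Podel.02G205000, Podel.14G114900, was expressed in all 4 groups, with 47.1 ± 0.629 FPKM in G (SD, n = 3), 31.7 ± 0.511 in P, 38.4 ± 6.29 in F_G and 33.9 ± 0.876 in F_P. Podel.T031500 and Podel.18G098000 were copies of each other and both members.

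Genes next to the members were compared between cultivars. They were chosen by position, but a gene that met the rule could not count as a neighbor. Of the 221 nearest genes that were no members, 83 (37.6%) reached 0.5 FPKM in all 12 libraries, compared with 47.9% of all annotated genes. In the limma fit of P vs. G, 26.1% of all 26577 genes tested were called (6931 genes, with an adjusted p no higher than 0.05 and a log2 fold change of 1 or more in size), 16.2% lower and 9.85% higher in P. Of the 118 neighbors tested, 32 were lower (27.1%) and 19 higher (16.1%). In F_G vs. G, 19.9% of 26789 genes were called (5332 genes), 10.5% lower and 9.35% higher in F_G. Of 119 neighbors tested, 26 were lower (21.8%) and 19 higher (16.0%). Neighbors were called above the background share in both directions and both comparisons, which share the G libraries. The background holds members and genes outside the annotation, neither of which could count as neighbors. The median log2 fold change of the neighbors was -0.13 in P vs. G and -0.25 in F_G vs. G, against -0.02 and -0.04 for all genes. This difference was not tested. Of the members themselves, 84 were tested and 84 were lower in each comparison, a count that the rule fixed.

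The 3 neighbors with the most negative fitted log2 fold change in P vs. G, on the log2(FPKM + 1) scale, were chosen after their values were seen. This scale favors genes of high level, and other neighbors, such as Podel.18G089600 with 13.3, 20.3 and 16.0 FPKM in G, were at 0 in every P library. Podel.01G267100, next to Podel.01G267200, had 214, 220 and 231 FPKM in G, 4.12, 4.40 and 3.44 in P, 26.9, 29.2 and 25.2 in F_G and 0 in each F_P library. The 4 groups did not overlap, and the log2 fold change on the log2(FPKM + 1) scale was -5.48 (SE 0.088, adjusted p = 4.16e-08, limma) in P vs. G and -2.99 (SE 0.078, adjusted p = 3.54e-07) in F_G vs. G. Podel.T131100, beside the run on scaffold_321, had log2 fold changes of -4.97 (SE 0.12, adjusted p = 1.28e-07, limma) and -4.51 (SE 0.18, adjusted p = 1.54e-06). Podel.T284900, between Podel.T284800 and the run on scaffold_90, had -4.91 in both comparisons (SE 0.25, adjusted p = 2.47e-06 in P vs. G and 3.97e-06 in F_G vs. G, limma). In P vs. G, 32 neighbors were called lower and 19 higher, and the largest change in size was upward. Podel.07G154100, next to the member Podel.07G154200, had 0.510, 0 and 0.155 FPKM in G and 140, 125 and 129 in P. Its log2 fold change was 6.78 (SE 0.15, adjusted p = 8.12e-08, limma) in P vs. G and 5.67 (SE 0.17, adjusted p = 4.62e-07, limma) in F_G vs. G. Beyond the nearest gene, medians showed no steady trend with position, as the plot of fold change by gene order shows.

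**Figure D5:**
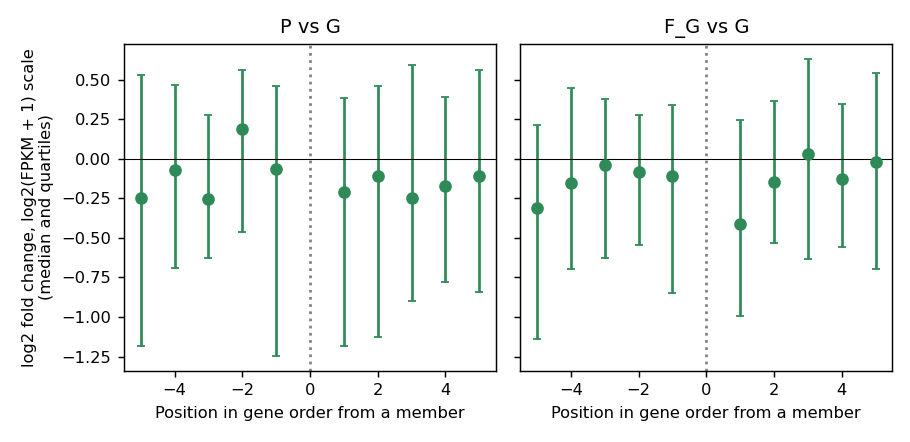
Fold change of genes up to 5 positions from a member in the gene order. Points are medians and bars quartiles of the log2 fold change on the log2(FPKM + 1) scale, for P vs. G on the left and F_G vs. G on the right, members left out. Medians lie between -0.41 and 0.19 at every position, and the lower quartiles reach -1.25.

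The thresholds passed through a continuum of values. Just inside the minimum, Podel.T089300 had 0.515, 0.596 and 0.785 FPKM in G, and Podel.05G033100 had 0.521, 1.81 and 1.98. Just outside, Podel.15G024900 had 2.41, 2.57 and 0.489 FPKM from 5, 5 and 1 fragments, and Podel.T127900 had 3.02, 0.484 and 0.613. Just inside the ceiling were Podel.T071400 (0.0482 FPKM at most elsewhere) and Podel.14G194800 (0.0465), and just outside were Podel.T289800 (0.0505) and Podel.01G454300 (0.0506). A further 74 genes with at least 0.5 FPKM in each G library failed the ceiling although no other library held more than 2 fragments of them, and 30 of these held at most 1 fragment in any other library.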

How the data were processed

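The authors purified mRNA from leaves, sequenced paired-end NovaSeq libraries, mapped them with HISAT2 to a *P. deltoides* assembly of NCBI that their methods name, and assembled transcripts with StringTie (tool versions: not given in the sources used here). No build is named in the deposited annotation, and coordinates are those of that annotation. FPKM values per gene for 12 libraries and a gene annotation with exon positions were deposited. Groups and replicates came from the sample labels. Of the 46170 genes listed, 1317 lie outside the annotation. They were kept out of the members and neighbors but not out of the limma fits.

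FPKM multiplied by exon length gave whole fragments (within 0.02) for 100% of the values checked, which gave the depth per library. This covers counting error only. Members, runs, exon counts and copies (the same series of at least 3 coding exon lengths) were computed with Python 3.11.15. A run is a series of members adjacent in the gene order. P vs. G and F_G vs. G were tested on log2(FPKM + 1) by limma-trend (limma 3.58.1, R 4.3.3). Each fit held the 6 libraries of its comparison and the genes that reached 1 FPKM in 3 or more of these, with Benjamini-Hochberg adjustment over all genes tested. The script was tested on simulated data. The fold change on this scale understates the change of low genes. The members and lists were chosen with earlier results of these data known. Genes were named by fixed rules: the 12 members with the highest mean in G, the members of the 3 longest runs, those with a GO term or KEGG pathway, the lowest and the highest coefficient of variation, and the genes next to each threshold. Copies and neighbors named in addition were chosen after their values were seen.

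Replicates are biological replicates per the authors. Alternatives were other thresholds, fragments instead of FPKM, other pseudocounts and filters, rescaling, a replicate block and leaving out each library. No sequences are shown.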

Additional observations from a re-analysis of the deposited data

Results flagged for a closer look

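Genes outside the deposited annotation, which have no position, showed the same pattern. They could be neither members nor neighbors, but those that passed the filter were among the genes tested in the limma fits. Of 1317 such genes, 24 had at least 0.5 FPKM in each G library and at most 0.05 FPKM in each of the other 9, of 457 detected in each G library. The same rule gave 0 genes for QHP only, 1 for F_G only, 0 for F_P only and 0 for both ZSY groups only, while 22 were low in L2025 only. Their mean in G had a median of 3.14 FPKM and ranged from 0.904 to 172. The strongest had 204, 191 and 121 FPKM in G1, G2 and G3 and was listed at 0 in all other libraries.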

How the results depend on the processing

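The 128 genes were 181 with a minimum of 0.25 FPKM in G and 84 with 1 FPKM, 117 with a ceiling of 0 elsewhere and 160 with 0.1 FPKM, and 152 with genes outside the annotation. They were 146 without the P libraries and 368 without the ZSY libraries, fewer libraries being asked to be empty. Leaving out 1 library at a time gave 129 to 157. This count could only stay at 128 or rise, since each library left out removes a condition of the rule. With a minimum of 1 FPKM, 9 members instead of 20 lay in runs, of 84. Without a minimum fold change, P vs. G gave 17154 genes and 84 neighbors, and F_G vs. G gave 13133 genes and 81 neighbors. Leaving out each library gave 6821 to 7031 genes and 47 to 54 neighbors in P vs. G, and 5238 to 5447 genes and 40 to 48 neighbors in F_G vs. G. Same-numbered libraries did not deviate together (correlation -0.114 to 0.093 in P vs. G and -0.237 to -0.052 in F_G vs. G), and a replicate block gave 6948 and 5310 genes with 51 and 44 neighbors. Depth limits the 39 members with fewer than 10 fragments in a G library. The alternative patterns of detection were added after seeing the data.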
